A study of Mus musculus with 36 samples.

Results

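The class I olfactory receptor cluster was examined in peak lists for K27me3 and K4me3 from mouse pancreas. Its genes were taken as the protein-coding genes of GENCODE vM21 (mouse build mm10) with a symbol of Olfr followed by a number and a start between 102 and 106 Mb of chromosome 7, which gave 124 genes of 21951. They ran from Olfr543 to Olfr692 over 2.89 Mb, chr7:102476579-105369355, with 62 genes on each strand and a median distance of 16.4 kb between neighbouring starts. The rule uses position and name. ChIP-Seq, in which an antibody pulls down chromatin fragments that carry a given histone mark, had been performed on whole pancreata of 12 mice aged 2 to 4 months, 22 days after the first oral gavage with tamoxifen. Control mice (labelled Wildtype) were compared with Mist1creERT/+ mice carrying the Ezh2 deletion (EZH2ΔSET), at 3 mice per genotype. The other 6 mice belong to 2 further genotypes, 1 of which also carries the Ezh2 deletion, and enter only the values over all 12 mice. Cre is driven from the Mist1 gene and acts in acinar cells, the enzyme-producing cells of the pancreas, while the tissue sampled also holds islet, duct, vessel and immune cells in which the Ezh2 allele is not recombined. Controls were C57BL/6 mice or mice with the Mist1creERT allele alone, and the deletion removes the SET domain, the catalytic part of EZH2.

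Olfactory receptors are G protein-coupled receptors that detect odorants in sensory neurons of the nose. Class I receptors resemble those of fish, and in the mouse their genes lie in a single cluster that surrounds the β-globin locus and includes several Trim genes. Each sensory neuron uses one receptor gene from one allele, and all other tissues keep nearly all of these genes silent. K27me3, methylation of histone H3 at lysine 27 by the EZH2-containing PRC2 complex, is linked to silent genes, whereas K4me3 marks active and primed promoters.

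The sequences shown here are the 250 bases before the start of genes at both ends of the range of marking, and the centre of a K4me3 region that is described below. They were read from GRCm38.p6, the assembly that mm10 represents, and are written 5′ to 3′ on the strand of the gene, with each CpG in capitals because CpG-rich DNA is where K4me3 and PRC2 are usually found. Olfr33 (chr7:102719071-102719320, minus strand) and Olfr689 (chr7:105310915-105311164, plus strand) had a K27me3 peak in every mouse. Olfr544 (chr7:102488314-102488563, minus strand), one of the receptors known outside the nose, had none in any mouse. Trim21 (chr7:102565487-102565736, minus strand), a receptor for antibodies in the cytosol whose gene lies between the receptor genes, had K4me3 in every mouse. The last sequence is the central 300 bases (chr7:102513106-102513405, plus strand) of a K4me3 region found in every mouse with no GENCODE protein-coding gene.
Olfr33: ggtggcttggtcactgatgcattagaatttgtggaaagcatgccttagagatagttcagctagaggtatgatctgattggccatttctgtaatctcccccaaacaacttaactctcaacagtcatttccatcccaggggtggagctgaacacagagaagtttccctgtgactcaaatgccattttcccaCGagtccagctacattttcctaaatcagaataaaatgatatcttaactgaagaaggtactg
Olfr689: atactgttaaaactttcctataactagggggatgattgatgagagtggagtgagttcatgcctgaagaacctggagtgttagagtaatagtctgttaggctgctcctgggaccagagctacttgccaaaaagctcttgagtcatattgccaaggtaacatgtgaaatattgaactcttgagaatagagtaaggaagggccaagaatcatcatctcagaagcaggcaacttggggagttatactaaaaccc
Olfr544: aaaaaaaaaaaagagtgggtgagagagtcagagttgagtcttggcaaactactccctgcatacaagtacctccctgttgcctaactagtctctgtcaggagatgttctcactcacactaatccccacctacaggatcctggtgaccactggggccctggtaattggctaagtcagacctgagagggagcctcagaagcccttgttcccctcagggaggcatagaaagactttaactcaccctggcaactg
Trim21: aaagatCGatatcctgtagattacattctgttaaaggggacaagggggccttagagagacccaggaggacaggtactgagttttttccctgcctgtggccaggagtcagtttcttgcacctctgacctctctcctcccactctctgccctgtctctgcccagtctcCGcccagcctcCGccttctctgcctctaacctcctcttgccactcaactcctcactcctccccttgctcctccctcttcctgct
K4me3 region without a gene: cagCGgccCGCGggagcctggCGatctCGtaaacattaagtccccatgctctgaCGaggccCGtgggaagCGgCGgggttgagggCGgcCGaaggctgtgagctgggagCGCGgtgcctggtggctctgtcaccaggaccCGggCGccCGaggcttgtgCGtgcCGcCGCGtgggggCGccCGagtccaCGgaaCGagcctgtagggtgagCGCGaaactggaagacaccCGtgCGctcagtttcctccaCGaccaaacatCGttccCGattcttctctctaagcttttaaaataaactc
The RefSeq start lies 4659 bp from the GENCODE start at Olfr33 and 2841 bp from it at Olfr689, but 6 bp at Olfr544 and 4 bp at Trim21. These windows held 1 CpG at Olfr33, 0 at Olfr689, 0 at Olfr544 and 3 at Trim21, against 31 in the 300 bases of the K4me3 region, whose GC content was 64%.

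The lists held 21420 to 31274 K27me3 peaks and 17400 to 26081 K4me3 peaks per mouse. They give positions without heights or read counts, so the depth is unknown and the part of depth in these values was not tested. Control mouse 2 stood apart, with a K27me3 peak within 3 kb of the TSS at 22.7% of all protein-coding genes against 9.16% to 14.5% in the other mice, and with the fewest peaks of both marks. The mice also fell into separate sets on the X chromosome. EZH2ΔSET mouse 2 and all 3 mice of 1 of the 2 further genotypes had 10 to 35 K27me3 peaks there, and the other 8 mice had 5637 to 7367. Their K4me3 lists held 9 to 12 peaks on the Y chromosome in the first set and 2 to 10 in the second. The study used both sexes and the labels give none, and whether the split follows sex was not tested. All 3 control mice, the remaining EZH2ΔSET mice and all 3 mice of the last genotype were in the second set. The lists cannot show the recombined Ezh2 allele. K4me3 lay at 10 of 10 acinar marker genes in at least 6 of 12 mice, 9 of them (Cpa1, Ptf1a and Bhlha15 included) in all 12, and K27me3 at 4 of the 10 (Ctrb1, Ptf1a, Rbpjl and Nr5a2) in control mouse 2 and at none in the other mice. Among markers of other cells, K4me3 lay in at least 6 mice at 4 of 4 duct, 1 of 6 islet, 1 of 3 endothelial, 0 of 4 blood and immune, 1 of 4 erythroid and 1 of 3 stroma genes. Of the olfactory neuron markers, Omp and Stoml3 had neither mark in any mouse, Cnga2, which lies on the X chromosome, had only K27me3, in 7 of the 8 mice of the second set and none of the first, and Gnal, which other tissues also use, had K4me3 in 12.

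No class I receptor gene had a called K4me3 peak at its start in these pancreata. A K4me3 peak lay within 3 kb of the TSS at 0 of 124 genes in each of the 12 mice, where 63.8% of all protein-coding genes had one in at least 1 mouse. Per mouse, 57.4% to 60.3% of all genes had such a peak, and the share of class I genes minus that of all genes was -59.0 percentage points in the mean over mice, which restates the count of 0 and is given with no test. The lists cannot show K4me3 below the caller's threshold. The closest K4me3 peak to any class I TSS in any mouse was 4652 bp from Olfr630, in 2 mice, and the next were 5364 bp from Olfr550, at Trim21, and 6848 bp from Olfr617. The Olfr617 peak was the only one within the body of a class I gene, and was found in 3 mice (1 of 124 genes, where 67.9% of all genes had a K4me3 peak over the body in at least 1 mouse). Of the other 969 Olfr genes of the genome, 4 had K4me3 in at least 1 mouse.

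K4me3 peaks covered 0.356% to 0.767% of the cluster, against 2.92% to 3.57% of the 1 Mb on either side. The difference was -2.80 percentage points, below 0 in 12 of 12 mice (p = 0.000488, exact sign-flip permutation test). The bases under K4me3 in all 12 mice came to 9.04 kb in 8 regions. Of these, 7 lay at the starts of Trim genes, which encode ubiquitin ligases of the antiviral response: Trim21, Trim68, Trim6, Trim34a, Trim5, Trim12a and Trim12c. Trim5 is known for binding retroviral capsids. The remaining region, chr7:102512891-102513620, is the one whose centre is printed above. It lay 13318 bp from the Olfr545 TSS, had a GC content of 59.2% with 54 CpG in 730 bases, and 5.89% of it was masked as repeat. The RefSeq annotation places the minus-strand pseudogene Gm8556 (chr7:102513080-102521018) over it, so that the region covers the end of the pseudogene and not its start. In some mice only, K4me3 was also found near Olfr608 (4 mice), in Olfr617 (3 mice), near Olfr630 (2 mice) and at Trim30a (7 mice) and Trim30d (6 mice). K4me3 peaks also lay near Trim5 (2 mice) and inside Trim30a (4 mice).

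**Figure D1:**
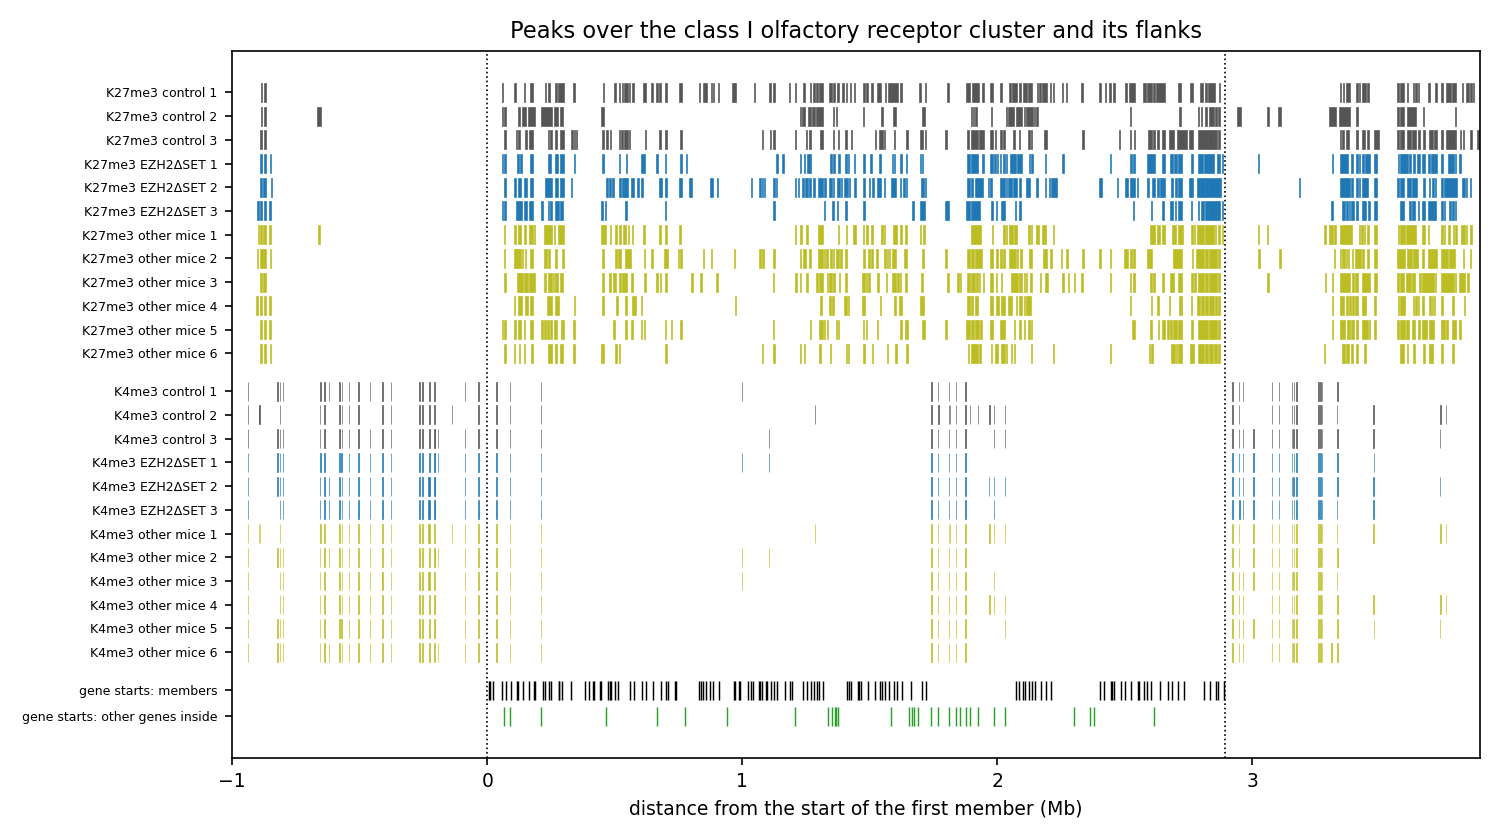
Peaks of K27me3 (upper rows) and K4me3 (lower rows) in each of 12 mice over the class I cluster and 1 Mb on either side. The horizontal axis is the distance in Mb from the start of Olfr543, dotted lines are the ends of the cluster, bars are peaks, and ticks at the bottom are starts of the 124 class I genes (members) and of the 32 other protein-coding genes inside. K27me3 peaks are spread over the cluster and the side after it, while K4me3 peaks inside the cluster stand at 8 places shared by all 12 mice and at others found in some mice only.

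K27me3 covered 14.6% to 30.6% of the cluster, with a mean of 21.3% ± 5.85 (SD, n = 12 mice), in 51 to 119 peaks per mouse with a median width of 6257 to 6594.5 bp. The autosomes were covered to 7.36% ± 1.19 (SD, n = 12), so the cluster had 2.00 to 4.45 times the autosomal share. The 2 Mb of flanks were covered to 12.4% ± 2.65 (SD, n = 12). The cluster exceeded its flanks by 8.93 percentage points, in 12 of 12 mice (p = 0.000488, two-sided exact sign-flip permutation test), and by 9.31 points without control mouse 2. The level was not the same on both sides. The 1 Mb before Olfr543 was covered by K27me3 to 1.13% to 3.71%, and the 1 Mb after Olfr692 to 11.9% to 31.0%. Both sides held genes with K4me3 in all 12 mice, 14 of 24 before the cluster (Rrm1, Stim1 and Nup98 among them) and 14 of 21 after it (Ilk, Taf10 and Tpp1 among them). Against the second side alone the cluster differed by -1.02 percentage points (p = 0.471, exact sign-flip permutation test), so coverage was not shown to be particular to the cluster on that side.

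**Figure D2:**
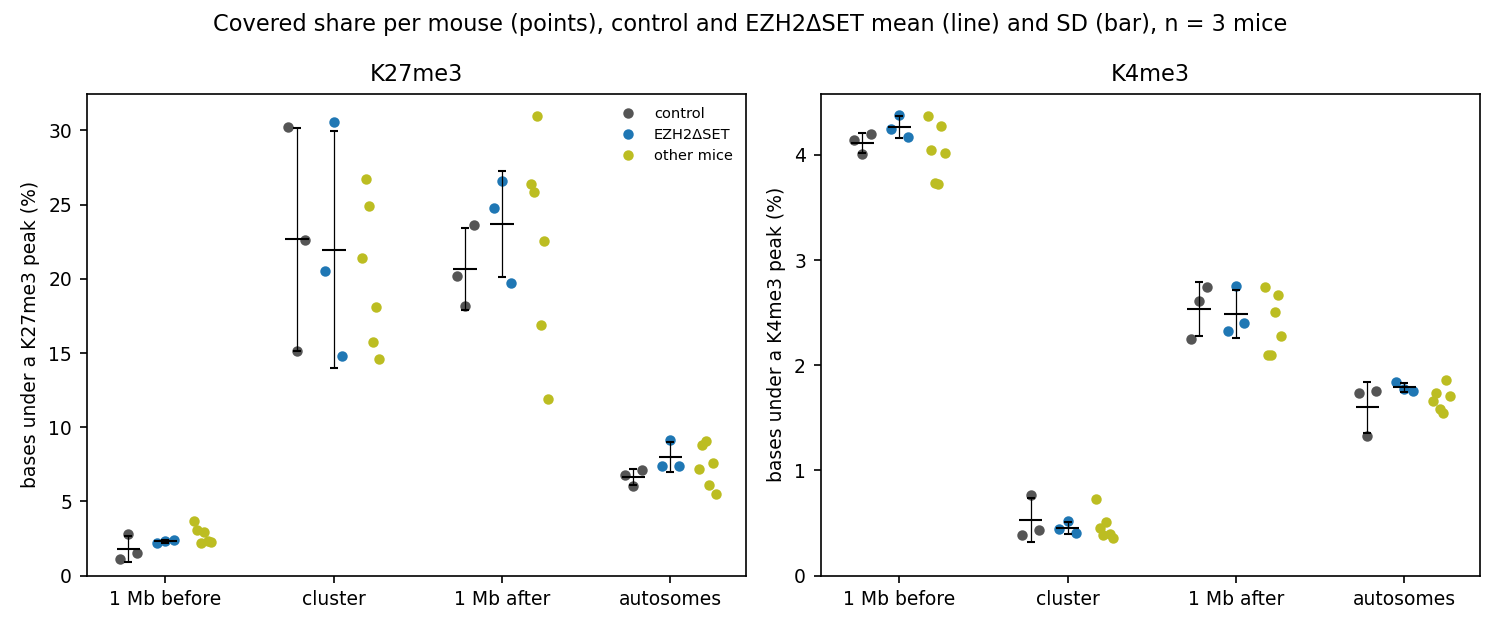
Share of bases (%) under a K27me3 peak (left) or a K4me3 peak (right) in the 1 Mb before the cluster, the cluster, the 1 Mb after it and all autosomes, in control, EZH2ΔSET and the other 6 mice. Points are mice, and lines and bars are mean and SD of control and EZH2ΔSET mice (n = 3 mice). K27me3 over the cluster (14.6% to 30.6%) overlaps the side after it (11.9% to 31.0%) and lies above the side before it in every mouse, and K4me3 over the cluster (0.356% to 0.767%) lies below all other regions shown.

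The mice placed K27me3 at different bases of the cluster. A peak of at least 1 mouse covered 58.9% of it, at least 6 mice shared 18.2%, and all 12 shared 2.20%, or 63.7 kb. Bases with both marks in the same mouse came to 0 in 9 mice and to 501, 1280 and 737 bp in control mouse 3, EZH2ΔSET mouse 2 and 1 of the other mice. The coverage was uneven along the cluster when it was divided where neighbouring genes of the class lay over 60 kb apart. The 5 genes from Olfr688 to Olfr692 at the far end had a median of 66.5% (range 49.2% to 75.2%), which was above every other stretch of class I genes in the median. The 32 genes from Olfr596 to Olfr67, next to the β-globin genes, had a median of 9.16% (range 1.03% to 26.7%). The stretches from Olfr543 to Olfr594 (41 genes), Olfr66 to Olfr649 (18), Olfr651 to Olfr661 (10) and Olfr665 to Olfr686 (18) had medians of 20.7%, 21.7%, 29.5% and 22.8%. Ranges of these 4 stretches overlapped with one another and with the lowest stretch.

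Within 3 kb of the TSS, K27me3 was found at many class I genes and at few in every mouse. A K27me3 peak lay within 3 kb of the TSS in at least 1 mouse at 102 of 124 genes (82.3%), where 33.4% of all protein-coding genes had one. At least 6 mice shared it at 37 genes (29.8%, all genes 12.9%), at least 9 mice at 23 genes (18.5%, all genes 6.71%) and all 12 at 4 genes (3.23%, all genes 2.41%). No mouse had it at 22 genes (17.7%, all genes 66.6%). In 12 of 12 mice the share of class I genes with K27me3 was above that of all genes, by 4.70 percentage points in control mouse 2 and by 6.83 to 44.9 in the others. The windows of 22 genes overlapped that of a neighbour, so their calls are not separate measurements. A single K27me3 peak, at least 5001 bp wide, can also touch neighbouring windows that do not overlap. Calls at other neighbouring genes may therefore be shared too, as at Olfr600 and Olfr601, called only in control mouse 1 and EZH2ΔSET mouse 2. Annotated starts matter here, since of the 124 genes 62 have a RefSeq start over 3 kb from the GENCODE start. With RefSeq starts, 102 genes were called in at least 1 mouse (all genes 33.5%), 46 in at least 6 (all genes 13.1%) and 2 in all 12 (all genes 2.41%), and K4me3 was again found at 0 genes (all genes 63.6% in at least 1 mouse). These counts were higher when the window reached 100 kb upstream of the TSS and 3 kb past it. K27me3 was then called in at least 1 mouse at 124 of 124 genes (all genes 66%), in at least 6 at 111 (all genes 35.5%) and in all 12 at 55 (all genes 13.6%), and K4me3 in at least 1 mouse at 41 (all genes 81.5%).

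**Figure D3:**
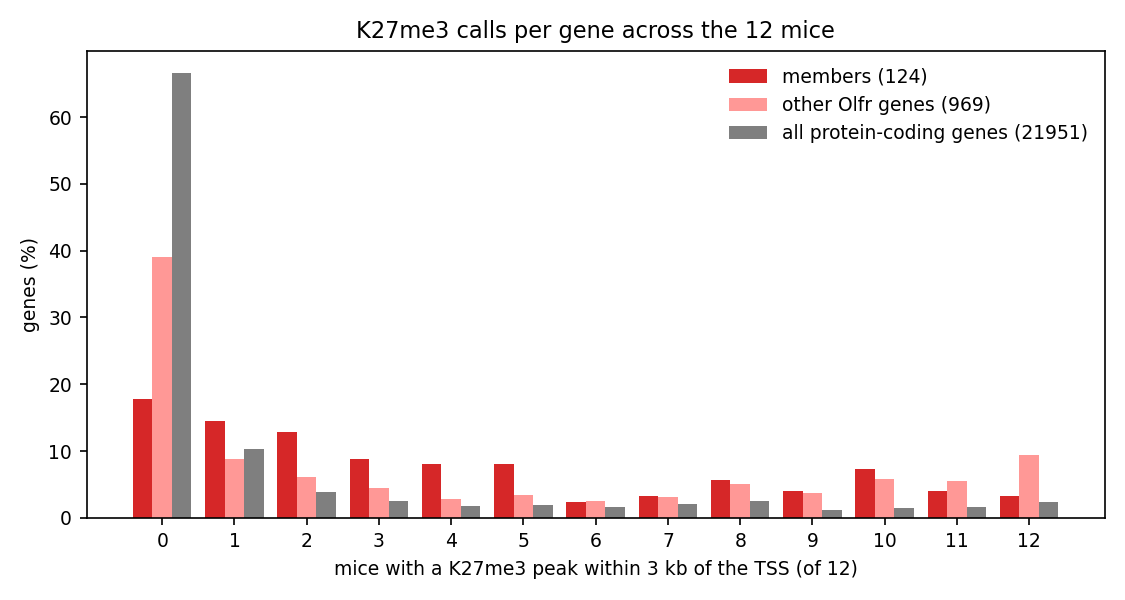
Number of mice, of 12, with a K27me3 peak within 3 kb of the TSS (horizontal axis), and the percentage of genes with that number (vertical axis), for the 124 class I genes (members), the 969 other Olfr genes and all 21951 protein-coding genes. Bars at 0 mice stand at 17.7%, 39.0% and 66.6%, and bars at 12 mice at 3.23%, 9.39% and 2.41%.

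The 4 genes with K27me3 in all 12 mice were Olfr33 near the start of the cluster and Olfr685, Olfr689 and Olfr691 near its end. Olfr689 lay in the longest stretch of bases shared by all 12 mice, 17.6 kb (chr7:105306962-105324540), which covered the whole gene. Olfr33 lay in a shared stretch of 4722 bp (chr7:102715075-102719796) that reached its TSS. Olfr552, Olfr555, Olfr561, Olfr651 and Olfr690 were called in 11 mice. Control mouse 1 was the one without a peak at Olfr552 and Olfr555, 1 of the other mice at each of Olfr561 and Olfr651, and EZH2ΔSET mouse 1 at Olfr690. Olfr549, Olfr559, Olfr591, Olfr68, Olfr66, Olfr648, Olfr652, Olfr679 and Olfr688 were called in 10 mice, and Olfr551, Olfr644, Olfr655, Olfr656 and Olfr684 in 9. At Olfr688 the exceptions were control mice 1 and 2. These 23 genes included 4 of the 5 at the far end of the cluster. With RefSeq starts 18 of the 23 were still called in at least 9 mice, and Olfr549 fell from 10 mice to 2, Olfr656 from 9 to 3, Olfr644 from 9 to 7, Olfr684 from 9 to 8 and Olfr685 from 12 to 8. Olfr33 and Olfr689 were called in all 12 mice with either start. Olfr692, the last gene, had K27me3 in no mouse.

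Some class I receptors are known outside the nose, and these were followed by name. Olfr78, a receptor for short-chain fatty acids in kidney and carotid body cells, had K27me3 in 8 mice, which were mice 1 and 3 of each genotype, and the 12 mice all had a peak somewhere in its body. The overlapping gene Olfr560 starts close by and was called in the same 8 mice, so these genes share one measurement. Olfr558, another receptor for short-chain fatty acids, was called in 7 mice: control mice 1 and 2, EZH2ΔSET mouse 2 and 4 of the other mice. Olfr544, which responds to azelaic acid and has been described in liver, fat and islet cells, had neither mark in any mouse, and the same held for Olfr545 and for Olfr543 at the start of the cluster. Olfr544, Olfr545 and Olfr543 lay 24278, 13018 and 30912 bp from the K4me3 region without a gene in the nearest mouse. Whole pancreas cannot show a mark restricted to a rare cell type. A run of 5 consecutive genes, Olfr566, Olfr568, Olfr569, Olfr570 and Olfr571, picked out after their values were seen, also had neither mark.

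Other genes inside the cluster differed by family. Among 32 of them, K27me3 was called in at least 6 mice at 8 (25.0%, all genes 12.9%) and K4me3 at 9 (28.1%, all genes 59.1%). The β-globin genes, which carry oxygen in red cells, had no K4me3 in any mouse, and K27me3 was called at the embryonic Hbb-y in 8 mice, at the adult Hbb-bs in 7 and at Hbb-bh2 in 6. The 12 Trim genes of the cluster fell into sets. Trim21, Trim68, Trim6, Trim34a, Trim5, Trim12a and Trim12c had K4me3 in 12 mice and K27me3 in 0 to 3. Trim30c had K27me3 in 12 mice and K4me3 in 1, and Trim30b in 9 and 1. Trim34b had K27me3 in 1 mouse and no K4me3. Trim30d had K27me3 in 9 mice and K4me3 in 6, and Trim30a, a regulator of inflammatory signalling, had them in 2 and 7. The 5 Usp17l genes, which encode deubiquitinating enzymes, had K27me3 in 1 mouse at each of Usp17ld and Usp17le and no K4me3, and the 187 kb stretch with 3 of them was covered to a median of 2.68% (range 0% to 14.6%). The 5 genes with pseudogene symbols had no K4me3, and K27me3 was called at Olfr548-ps1 in 11 mice, at Olfr680-ps1 in 6 and at the other three in 3 to 5.

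Loss of the catalytic domain of EZH2 poses the question whether K27me3 is lower at this cluster. K27me3 was called at 67, 34 and 49 class I genes in control mice 1 to 3 and at 41, 61 and 26 in EZH2ΔSET mice 1 to 3. Over all genes the shares called were 9.16%, 22.7% and 12.1% in these control mice and 12.7%, 10.9% and 14.1% in the EZH2ΔSET mice. The groups overlapped in their counts of class I genes, with control mouse 1 the highest and EZH2ΔSET mouse 3 the lowest. The means were 50.0 ± 16.5 and 42.7 ± 17.6 genes (SD, n = 3 mice each). The covered share of the cluster was 30.2%, 15.1% and 22.6% in control mice and 20.5%, 30.6% and 14.8% in EZH2ΔSET mice, and these groups overlapped as well.

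The difference between the genotypes did not pass the test. EZH2ΔSET minus control was -7.33 genes (two-sided exact permutation p = 0.7, Benjamini-Hochberg adjusted p = 0.933) and -0.68 percentage points of covered share (exact permutation p = 0.9, adjusted p = 0.982), where the smallest p of 3 against 3 mice is 0.1. Without EZH2ΔSET mouse 2, which leaves mice of one set by X chromosome peaks, it was -16.5 genes and -4.98 points (exact permutation p = 0.4 for each). Without control mouse 2 it was -15.3 genes and -4.44 points (exact permutation p = 0.4 and 0.5). The sign turned without control mouse 1 or EZH2ΔSET mouse 3. The lists of EZH2ΔSET mice 1 to 3 held 23708, 28783 and 23052 autosomal K27me3 peaks, and those of control mice 1 to 3 held 23954, 15782 and 23324. The part of these numbers in the difference was not tested. In whole pancreas a change in the share of cells with the mark and a change within each cell cannot be told apart. The cluster share divided by that of the autosomes was 4.45, 2.50 and 3.17 in control mice and 2.79, 3.34 and 2.00 in EZH2ΔSET mice, which gave means of 3.37 ± 0.990 and 2.71 ± 0.671 (SD, n = 3).

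**Figure D4:**
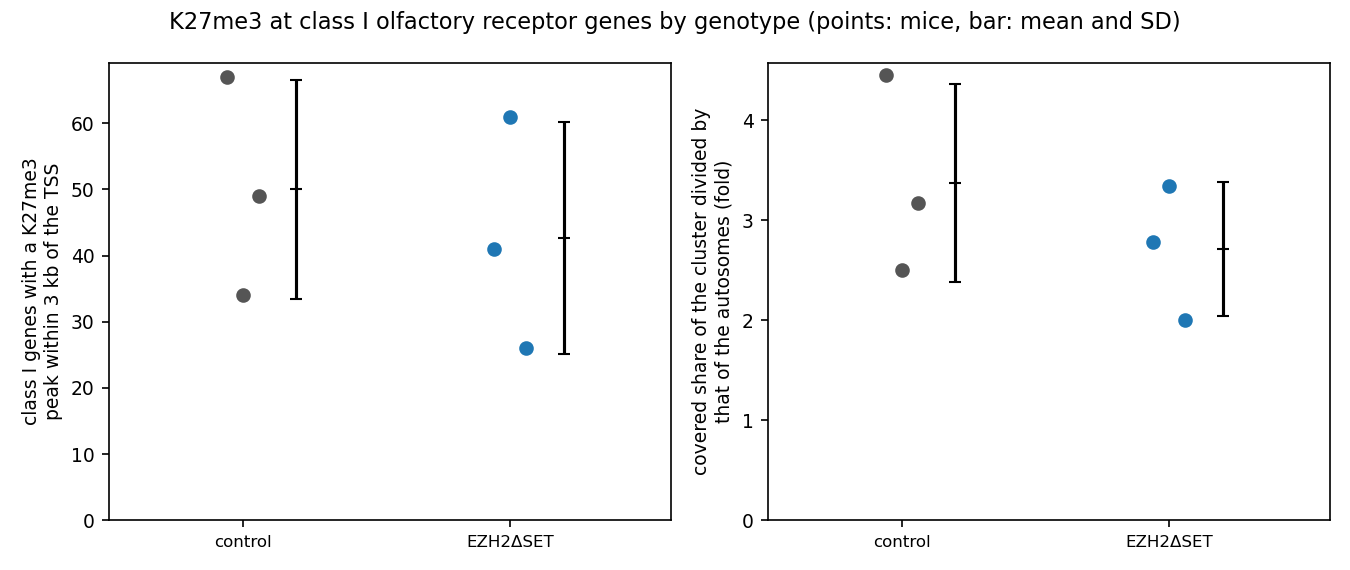
Class I genes with a K27me3 peak within 3 kb of the TSS (left, of 124) and covered share of the cluster divided by that of the autosomes (right, fold), in control and EZH2ΔSET mice. Points are mice and bars are mean and SD (n = 3 mice). Control mice have 34 to 67 genes and EZH2ΔSET mice 26 to 61, so the groups overlap.

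Gene by gene, 17 class I genes had K27me3 in all 3 control mice (all genes 4.8%) and 17 in all 3 EZH2ΔSET mice (all genes 6.28%). Fewer EZH2ΔSET than control mice had a peak at 43 genes (34.7%, all genes 15.6%) and more at 24 (19.4%, all genes 7.88%). For the other Olfr genes these counts were 152 fewer (15.7%) and 201 more (20.7%) of 969, and the difference between the sets was not tested. K27me3 was also called at more class I genes than genes in general, so the shares in both directions have to be read together. Olfr640 was called in all 3 control mice and in no EZH2ΔSET mouse, a contrast that 0.0137% of all genes had. This depends on the start used, since with the RefSeq start or over the gene body Olfr640 was called in 3 control and 2 EZH2ΔSET mice. No class I gene was called in all 3 EZH2ΔSET mice and no control mouse (all genes 0.223%).

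The calls of any 2 mice overlapped in part, whatever their genotype. Mice of the same genotype shared 17 to 37 class I genes (median 23.5), which was a median of 67.8% of the shorter list and 51.4% of the longer. Mice of different genotypes shared 14 to 39 genes (median 23.5), or 72.3% and 50.4% of the lists in the median.

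Class I genes were compared with the other 969 Olfr genes, which belong mostly to class II and lie in clusters on many chromosomes. Per mouse, 21.0% to 54.0% of class I genes and 22.6% to 42.1% of other Olfr genes had K27me3 within 3 kb. The difference was 0.64 percentage points (p = 0.754, two-sided exact sign-flip permutation test over 12 mice). This depended on the setting. With equal numbers of the widest peaks per mouse it was -4.69 points (exact p = 0.0137), and with a window from 100 kb upstream to 3 kb downstream 25.8 points (exact p = 0.000488). Other Olfr genes were called in all 12 mice in 9.39% of cases and in no mouse in 39.0%, against 3.23% and 17.7% of class I genes. 

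Among 15 runs of at least 20 Olfr genes, the class I cluster was sixth by its median share of bases under K27me3, 21.0% (range 14.6% to 30.6%). The run of 29 genes on chromosome 11 (chr11:73350783-74366218) was covered to 88.5% (range 54.2% to 92.8%), and its range did not overlap with that of class I. The 63 genes on chromosome 19 had 47.1% (range 24.7% to 59.0%), and were above class I in 12 of 12 mice. At the other end, a run of 36 genes on chromosome 2 was the lowest, with 3.73% (range 0% to 7.23%). Next above it, a run of 217 genes on chromosome 2 had 5.32% (range 1.05% to 8.78%). The other run on chromosome 7, with 65 genes, had 14.0% (range 6.17% to 22.0%) and was below class I in 12 of 12 mice.

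**Figure D5:**
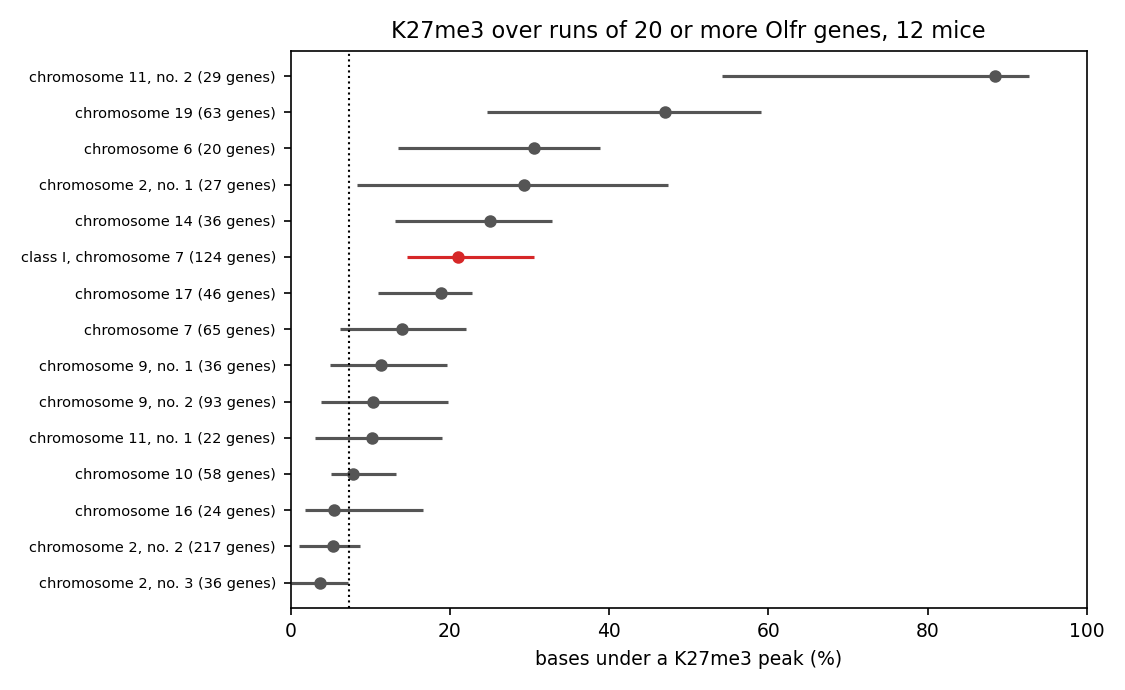
Share of bases (%) under a K27me3 peak in runs of 20 or more Olfr genes, with the class I cluster in red. Points are medians and lines run from the lowest to the highest of 12 mice, numbers in brackets are genes, and the dotted line is the autosomal median (7.29%). The class I cluster (21.0%) is sixth of 15, between the runs on chromosomes 14 and 17.

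Other receptor families gave a frame for these values. Within 3 kb of the TSS, K27me3 was found per mouse at 25.0% ± 4.09 of 207 Vmn1r and 17.9% ± 3.29 of 120 Vmn2r genes (pheromone receptors), at 16.0% ± 4.47 of 35 Tas2r genes (bitter taste receptors) and at 0 of 15 Taar genes (trace amine receptors) (SD, n = 12 mice). Class I genes had 34.5% ± 10.7 and all protein-coding genes 13.3% ± 3.36. Hox genes, classical PRC2 targets, had 98.7% ± 4.44.

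The genes that act with the receptors were examined from a list of 22. K27me3 was called in at least 6 mice at 5 of them: the transcription factors Lhx2 (12 mice), Emx2 (11) and Ebf1 (10), which bind receptor gene promoters and enhancers, the phosphodiesterase Pde1c (10) and the X-linked cyclic nucleotide channel subunit Cnga2 (7, all among the 8 mice with many X chromosome peaks). For K27me3 this was 22.7% of the list, where 12.9% of all genes had such a call. K4me3 was called in at least 6 mice at 12 (54.5%, all genes 59.1%), among them Gnal, Adcy3, Ric8b, Ldb1, Kdm1a and Atf5, genes with uses in many tissues. Ebf1 had K4me3 in 9 mice and Pde1c in 12 in addition to K27me3, and Lhx2 in 4. Omp, Cnga4, Cngb1, Rtp1 and Rtp2 had neither mark in any mouse, Rtp1 and Rtp2 being chaperones that bring receptors to the cell surface. Of these, Cnga4 lies in the 1 Mb just after the cluster.

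The DNA just before the annotated starts of class I genes was AT-rich and CpG-poor. Only 20 of the 124 genes have a RefSeq start within 100 bp of the GENCODE start, so many of these windows may not be the promoter in use, and the word promoter here means only the window. In the 250 bases before the GENCODE TSS the median GC content was 40.2% and the median number of CpG was 1, against 54.0% and 8 over 21938 promoters, and 54 of 124 class I promoters (43.5%) had no CpG against 7.58% of all. Promoters of the 37 genes with K27me3 in at least 6 mice had a median GC content of 41.6%, and those of the 22 genes without K27me3 40.2%. The 7 Trim genes with K4me3 in 12 mice had 50.4% and a median of 3 CpG. The cluster as a whole had a GC content of 39.4%, against 44.5% before it and 42.2% after it. On either strand, TATAAA was found in 30.6% of class I promoters (all promoters 11.5%) and TAATTA, the core bound by homeodomain factors such as LHX2, in 16.1% (all promoters 4.99%). TAATTA was found in 8 of 22 class I promoters without K27me3 (36.4%) and in 3 of 37 with K27me3 in at least 6 mice (8.11%), which is given as a description. Other Olfr promoters had a median GC content of 36.8%, with TATAAA in 29.3% and TAATTA in 23.6%. Both motifs hold only A and T, and whether their shares exceed those given by AT-rich windows was not tested. With RefSeq starts, an alternative added after seeing the data, the 124 class I windows had a median GC content of 36.4% and a median of 1 CpG, against 52.8% and 7 over 20872 genes. TATAAA was then found in 36.3% (all genes 12.8%) and TAATTA in 15.3% (all genes 5.05%). TAATTA was in 6 of 22 windows without K27me3 at the RefSeq start (27.3%) and in 5 of 46 with K27me3 there in at least 6 mice (10.9%).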

How the data were processed

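ChIP-Seq peak lists for K27me3 and K4me3 from 12 mouse pancreata were used, 24 in all, grouped by the genotype in the labels. The authors checked reads with FastQC, used bowtie2 for alignment to mm10, and ran HOMER peak calling on each mouse (findPeaks, set to histone mode) against local background and the input (versions not given in the sources used here). The deposited lists hold start and end positions and a score, which was 1 for every peak in the deposited lists and carries no height. The smallest K27me3 peak was 5001 bp and the smallest K4me3 peak 501 bp, and no 2 lists were identical. Read depth is unknown. Inputs were not analysed here.

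Genes counted as called where a peak touched the window of 3 kb on either side of the GENCODE vM21 start. Covered shares count overlapping peaks once. Comparisons used exact permutation tests over mice (sign-flip within mice, and 3 against 3). Adjusted p-values are over 12 tests between genotypes, and comparisons with 2 further genotypes are not reported here. The code was tested on simulated data. Promoter sequence was read from the RefSeq genome GRCm38.p6 at GENCODE starts, and motifs were searched on both strands.

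The class I genes and all lists were chosen with earlier results of these data known. Genes were named by rule: Olfr78, Olfr558, Olfr544 and Olfr545, the first and last by position, the 20 with K27me3 in most mice (ties by position, with the 3 tied genes after them added once values were seen), any with K4me3, those with 3 of 3 against 0 of 3 mice between control and EZH2ΔSET, and other genes of the cluster called in at least 6 mice. Replicate numbers did not pair the mice. Alternatives were other windows, gene starts, flanks, peak numbers, scaling to the autosomes, medians, and each mouse left out. RefSeq starts (for calls and for sequence) and the sets of mice by X chromosome peaks were added after seeing the data. Scripts ran in Python 3.11.15 with scipy 1.17.1, matplotlib 3.10.9, pandas 2.3.3 and numpy 2.4.6.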

Additional observations from a re-analysis of the deposited data

How the results depend on the processing

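Peak lists without read counts limit all values: depth could not be corrected, and only calls and bases are compared. With 3 mice per genotype an exact permutation test of a pair of genotypes cannot go below p = 0.1, so a missed threshold says nothing on whether genotypes are alike. Among the comparisons over 12 mice reported here, those whose outcome was free to change were cluster against flanks for each mark and class I against other Olfr genes. For these, leaving out 1 mouse at a time left 35 values with their direction and side of the threshold and turned the sign of 1. Other planned settings left 13 as they were, turned 3 (1 of them, with equal numbers of peaks, now past the threshold at an exact sign-flip p of 0.0137) and brought 1 more past it.

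The cluster minus flank difference in K27me3 was -1.02 points with the flank after the cluster only. Leaving out a mouse gave 7.96 to 9.40 for it. In the 4 mice with few X chromosome peaks, where an exact sign-flip test cannot go below p = 0.125, it was 10.8 points, the K4me3 difference from the flanks -2.75 points and the K4me3 share minus that of all genes -59.3 points.

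Class I minus other Olfr genes was -4.69 points with equal numbers of peaks, -1.44 with a 1 kb window, 25.8 with the 100 kb window (p = 0.000488, exact permutation) and -0.72 in the 8 mice with many X chromosome peaks, and -0.64 to 1.56 when mice were left out, below 0 without control mouse 1.

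EZH2ΔSET minus control was 0.333 genes with the 100 kb window, and ran from -16.5 to 1.17 genes and -4.98 to 3.10 points when mice were left out, above 0 without control mouse 1 or EZH2ΔSET mouse 3 for both and without EZH2ΔSET mouse 1 for the points. The cause of these changes was not tested.

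Same-numbered mice of different genotypes had deviations that correlated from -0.26 to 0.16 across genes (median -0.015, 18 pairs), so the numbers do not pair them. With the replicate number as a block, EZH2ΔSET minus control was -7.33 genes and -0.68 points by construction (exact sign-flip p = 1 for each, where 3 pairs cannot go below 0.25), so the block could not have changed a call.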
